A study of Mus musculus with 12 samples.

Results

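This account covers the newborn comparison of a mouse model of choroid plexus tumor: 3 arrays of tumor tissue against 3 arrays of normal choroid plexus, all taken at birth, which are 6 of the 12 arrays of the study. The arrays were chosen by their labels alone, as every sample titled as a tumor or a normal choroid plexus of postnatal day 0. All genes detected on these arrays were described, with the weight on those outside the Notch, Wnt and cell cycle genes.

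The tumors came from mice of genotype Math1-cre;Rosa26-NICD1, in which a Cre recombinase driven by the Math1 promoter turns on the intracellular part of Notch1 (NICD1) from the Rosa26 locus. The controls were wild type CP, where CP stands for choroid plexus. Both groups were of strain background C57BL/6 and of age day 0, and both were dissected from the hindbrain. Each array carried RNA pooled from several animals of 1 genotype, and the labels give neither the number of animals in a pool nor their sex or litter. The p-values therefore measure the spread between these pools, which may be partly technical. Math1 is active in the rhombic lip of the embryonic hindbrain, so recombination is limited to cells of that lineage, and the dissected tissue also holds vessels, stroma and blood.

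The choroid plexus is the vascular fold in each brain ventricle whose epithelium makes the cerebrospinal fluid. Its epithelial cells carry tufts of motile cilia, seal the border between blood and fluid with tight junctions, move ions, sugars and vitamins across it and secrete carrier proteins such as transthyretin. In the hindbrain the epithelium arises from the rhombic lip and roof plate, and the young epithelium itself secretes Sonic hedgehog, to which nearby progenitors respond by dividing. Active Notch enters the nucleus, joins the DNA-binding protein RBPJ and turns on Hes and Hey genes, and in many epithelia it holds cells back from the multiciliated fate.

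The signals were background-corrected bead intensities, put on a common distribution over the 6 arrays and printed here on a linear scale as normalised signal. Differences are tumor minus wild type on the log2 scale with their SE, n = 3 against 3. Adjusted p is limma's test with Benjamini-Hochberg adjustment over all 11471 genes, and a gene is called where it lies under 0.05. The median bead signal before correction ranged from 160.7 to 179.9 over the tumor arrays and from 144.2 to 153.9 over the wild-type arrays, and 19043 to 22057 probes per array were detected. All 6 arrays shared 1 BeadChip, with the tumors in its first 3 positions and the wild types in its last 3, so position and genotype cannot be told apart. Wild type 1 stood apart from the rest. It had the fewest detected probes and the lowest mean correlation with its own group (0.939, against 0.955 to 0.975 for the other 5 arrays), and 92 genes read at least 4-fold below the lowest of the other 5 arrays there, among them the elongation factor Eef2 (142 against 3736 to 5164 in the other wild types and 3912 to 7746 in tumors). No gene read that far below the rest on any of the other 5 arrays. None of those 92 genes was called. An array so far below the others of its group widens the spread, so a call was unlikely whatever the true difference. Each result below was also computed without each array in turn.

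Of the 11471 genes, 584 were called, which is 5.09%: 328 were higher in the tumors (2.86%) and 256 lower (2.23%). Large changes ran mainly upward. Among called genes, 126 rose at least 4-fold and 18 fell that far, and 29 rose and 0 fell at least 8-fold. The signals of the groups did not overlap for 2944 genes (25.7%), the 584 called genes among them. Limma called 163 genes without tumor 3, 238 without wild type 3, 275 without tumor 1, 405 without wild type 2, 512 without wild type 1 and 577 without tumor 2. With the sample number as a block the count was 1472, 693 higher and 779 lower. The call held without each array in turn for 142 of the 328 higher and 18 of the 256 lower genes. For the genes described below, calls lost in such a fit are given beside them.

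**Figure D1:**
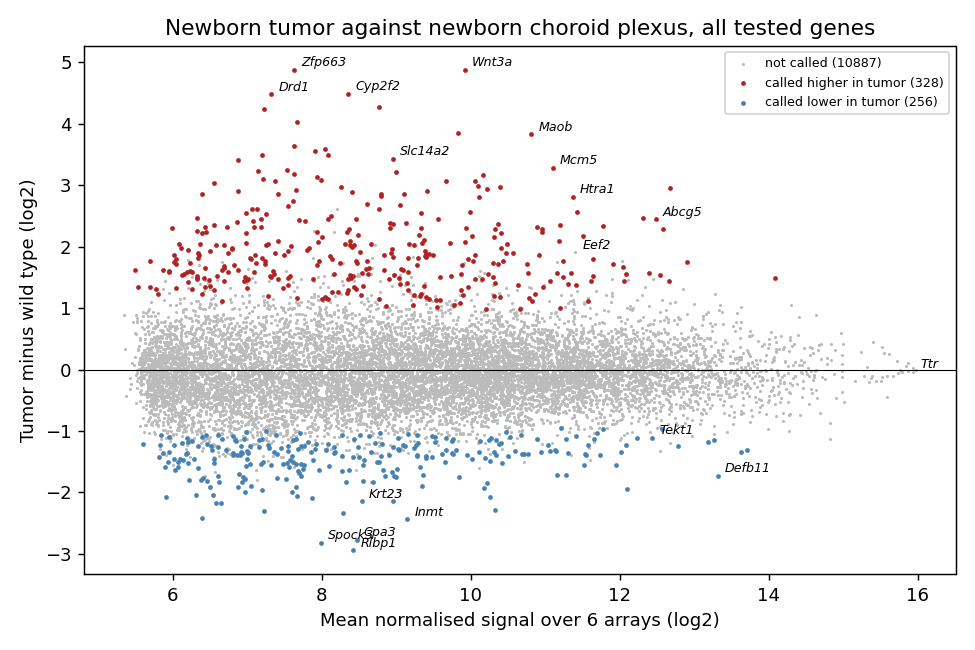
Mean normalised signal over the 6 arrays (log2) against the difference between tumor and wild type (log2), 1 point per gene. The 328 genes called higher reach 4.88 on the log2 scale and the 256 called lower reach -2.94. The brightest genes such as Ttr lie near 0, but the common distribution over the arrays leaves little room for a difference at their level.

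Of the Notch target list, 6 of 9 tested genes were called higher and 0 lower, beside 2.86% of all genes. Hes5, a transcriptional repressor and classical Notch target, read 808, 407 and 838 in tumors 1 to 3 and 29.9, 31.4 and 43.5 in wild types 1 to 3, where no array detected it. The tumor signal stood at least 11.8-fold above theirs (adjusted p = 0.000333). The labelled transgene product, Notch1, read 883, 1433 and 1037 in tumors and 524, 496 and 478 in wild types, a difference of 1.13 ± 0.26 (adjusted p = 0.0418). All 3 tumors lay above all 3 wild types, but the Notch1 call was lost without any 1 array (adjusted p 0.0571 without wild type 1 to 0.165 without tumor 3), and whether its probe reads the transgene was not tested. The promoter of Hes5 is shown because it holds the RBPJ core GTGGGAA on both strands, in capitals below, 226 and 83 bases before the start (RefSeq, GRCm38.p6, chr4:154960673-154960922, plus strand). This gene was chosen for display after its values were seen.
Hes5: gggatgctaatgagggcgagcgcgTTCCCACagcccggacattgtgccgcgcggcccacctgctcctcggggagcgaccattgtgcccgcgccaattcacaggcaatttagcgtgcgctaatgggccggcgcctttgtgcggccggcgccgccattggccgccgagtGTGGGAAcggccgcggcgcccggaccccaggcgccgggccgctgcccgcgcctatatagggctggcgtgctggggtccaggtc
A match is a description of the letters and not of binding. Over all tested genes with a promoter in RefSeq, 6.06% of the 300-base windows (250 before to 50 after the first listed start, both strands) held GTGGGAA, beside 6.28% of genes called higher and 5.56% of genes called lower.

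Wnt genes rose with them, with 7 of 8 feedback and target genes (3 without tumor 3) and 6 of 29 ligands, receptors and R-spondins called higher and none lower (7 and 7 higher and, of the ligand list, 1 lower with the block). Wnt3a, a ligand of the roof plate and hem, read 4727 to 6282 in tumors against 145 to 213 in wild types, the largest called difference (log2 4.88 ± 0.26, adjusted p = 7.06e-05). Fzd10 encodes a Wnt receptor and differed by 4.28 ± 0.32 (adjusted p = 0.000327). Rspo1 encodes a secreted amplifier of Wnt signaling and differed by 3.49 ± 0.42 (adjusted p = 0.00224). The antagonist gene Wif1 rose as well (2.29 ± 0.46, adjusted p = 0.0236), but its call was lost without tumor 1, 2 or 3 (adjusted p 0.0543, 0.0779 and 0.11).

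The largest rises outside these pathways and the cell cycle were genes of several unrelated classes. Zfp663 encodes a zinc finger protein. Its signals were 1120.0, 1016 and 1075 in tumors 1 to 3, against 47.0, 30.7 and 33.4 in wild types 1 to 3, where it was not detected. The tumor signal was at least 19.3-fold higher (adjusted p = 7.06e-05); a second probe of the gene differed by 1.48. Cyp2f2, a cytochrome P450 best known from lung airway cells, read 1774, 1356 and 1547 in tumors and 93.5, 65.1 and 54.3 in wild types (4.49 ± 0.28, adjusted p = 0.000171). Every tumor lay far above every wild type for this gene. Maob, monoamine oxidase B, an enzyme of the outer mitochondrial membrane that breaks down amines such as dopamine and phenylethylamine, read 5800.5, 8303 and 6522 in tumors and 739, 411 and 359 in wild types (3.83 ± 0.32, adjusted p = 0.000388). The lowest tumor signal of Maob exceeded the highest wild-type signal several-fold, and its second probe differed by 1.06.

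Other large rises included genes known from neurons, picked out here from the leading genes and not from a list. Drd1, the D1 dopamine receptor, read 688, 1069 and 590.0 in tumors and 33.3, 30.6 and 38.2 in wild types. No wild-type array detected it, and the tumor signal was at least 13.7-fold higher (adjusted p = 0.000171). Lingo2, a leucine-rich repeat protein of the neuronal membrane, read 435, 938 and 833 in tumors against 64.2, 71.7 and 38.3 in wild types (3.64 ± 0.37, adjusted p = 0.000896). Gsg1l, an auxiliary subunit of AMPA-type glutamate receptors, differed by 3.56 ± 0.33 (adjusted p = 0.000654), and Shisal1 by 4.04 ± 0.27 (adjusted p = 0.000228). Cdh13, a cadherin anchored to the membrane by a lipid, read 759.6 to 1097 in tumors and 72.2 to 86.7 in wild types (3.49 ± 0.25, adjusted p = 0.000282). Cacna1g, a T-type calcium channel subunit, differed by 2.39 ± 0.24 (adjusted p = 0.00087). The neuronal differentiation list had no call, with 0 of 14 tested genes called and 0 at an unadjusted p under 0.05 in limma, though 2 were lower under the block. Summed signals of the 8 tested neuronal markers ranged over 1588 to 2679.7 in tumors and 2246 to 3109.9 in wild types.

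Other leading rises were enzymes and transporters. Hs3st3a1, which adds 3-O-sulfate to heparan sulfate, read 818, 939 and 1003 in tumors and 66.0, 70.9 and 94.7 in wild types (3.59 ± 0.25, adjusted p = 0.000276). Slc14a2, a urea transporter known from the kidney, read 2108, 1129.7 and 1827 in tumors and 147, 162 and 144 in wild types (3.44 ± 0.29, adjusted p = 0.000388). Both genes separated the groups with no array in between. Pcsk6, a proprotein convertase that cleaves precursors of the TGF-beta family, read 6459.6, 7081 and 6654 in tumors and 1622, 1099.5 and 823 in wild types (2.57 ± 0.29, adjusted p = 0.00174).

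On all 3 tumor arrays and on no wild-type array, 90 genes were detected, and 39 of these were called, beside 5.09% of all genes. The reverse pattern held 58 genes, with 20 called. Both patterns select genes whose groups differ in detection, and such genes passed the filter only through the group that detected them. Their share of calls is raised by this choice and is no separate result. After Zfp663, Drd1 and Hes5 the largest tumor-only difference was in Perm1, a regulator of mitochondrial genes known from muscle, which was at least 6.94-fold higher (signals 364 to 396 in tumors, adjusted p = 0.000327). Arc, an immediate early gene of neurons, followed at least 4.86-fold higher (adjusted p = 0.000654). Of the immediate early list 2 of 21 were called higher and 1 lower, the others being Ccn1, higher, and Hspa1a, lower (adjusted p 0.0406 and 0.0185, Ccn1 losing its call without every array but wild type 1, at 0.0517 to 0.15, and Hspa1a without tumor 1 or 3, at 0.0695 and 0.101). Fos lay at 0.04 ± 0.46 (adjusted p = 0.974). Tbx15, a T-box factor, was at least 3.4-fold higher (adjusted p = 0.00182). Lgr5, an R-spondin receptor and Wnt target, was at least 3.82-fold higher (adjusted p = 0.00788, but 0.0536 without tumor 3).

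**Figure D2:**
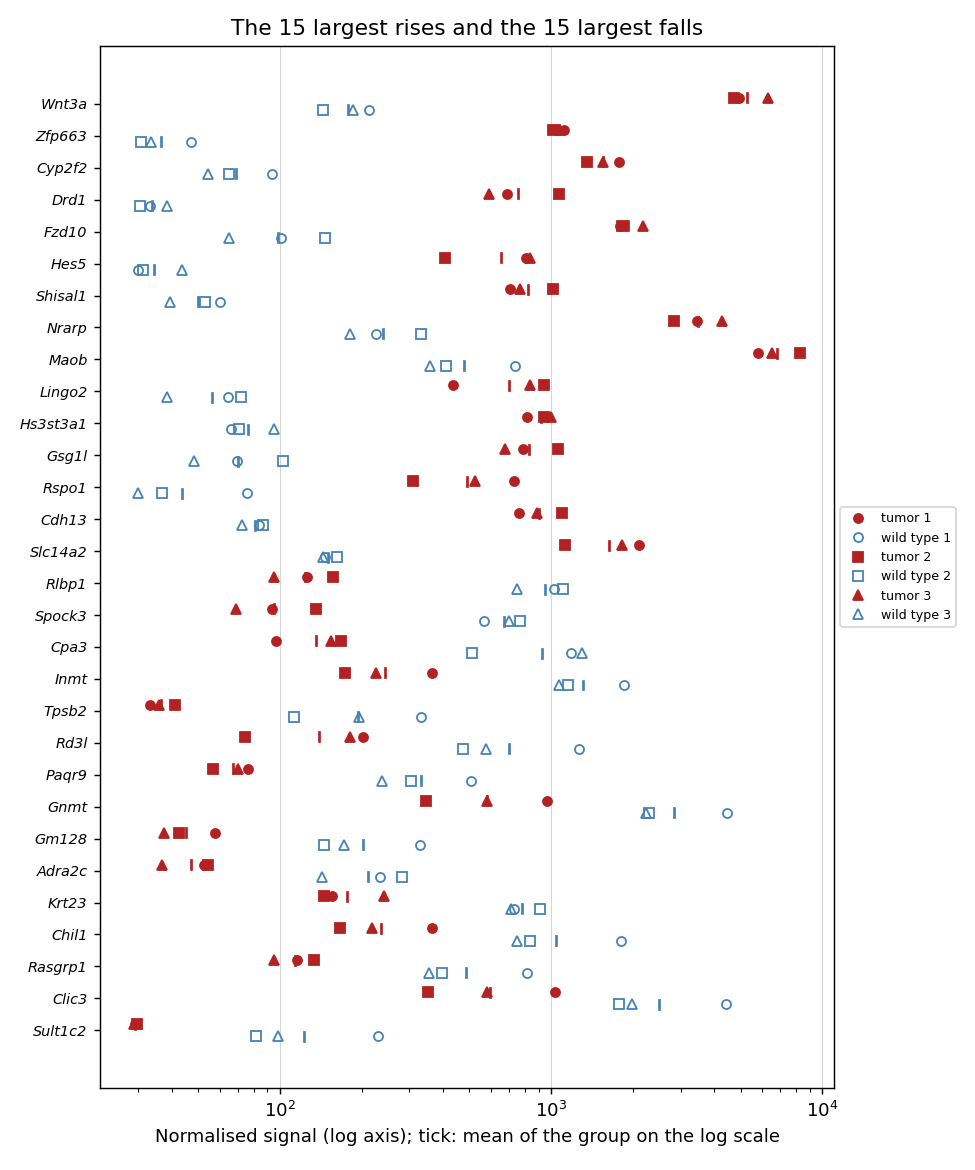
Normalised signal on a log axis in each of the 6 arrays for the 15 called genes with the largest rise and the 15 with the largest fall. Filled red symbols are tumors, open blue symbols wild types, and ticks group means on the log scale; the groups separate for every gene shown, from Wnt3a at the top to Sult1c2 at the bottom.

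Both partners of the sterol exporter rose. ABCG5 and ABCG8 work as a pair that pumps plant sterols and cholesterol out of cells. Abcg5 read 11028, 17175 and 12653 in tumors and 1714, 2734 and 3145 in wild types (2.45 ± 0.31, adjusted p = 0.00304). Abcg8 read 2561, 4139 and 2747 in tumors and 319, 444 and 417 in wild types (2.98 ± 0.28, adjusted p = 0.000681). For each partner tumor 2 was the highest array, and no wild type reached a tumor. The 2 called genes of the cholesterol list, of 34 tested, were also higher: Stard4, a cholesterol carrier of the cytosol (1.73 ± 0.33, adjusted p = 0.0184, but 0.053 without tumor 2 and 0.105 without tumor 3), and Srebf2, a regulator of sterol synthesis (1.22 ± 0.28, adjusted p = 0.0403). Srebf2 lost its call without tumor 1 or 3 or wild type 2 or 3 (0.106 to 0.172), and its second probe differed by 0.19. With the block 4 of the list were higher and 6 lower, and without tumor 3 none was called. The list's median was 0.00, beside -0.07 over all genes.

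Genes of fat handling had few calls, in both directions. Fads2, the delta-6 desaturase that starts the making of long polyunsaturated fatty acids, read 2144, 2396 and 2113 in tumors and 317, 740.1 and 496 in wild types (2.18 ± 0.33, adjusted p = 0.00633). Lpl, the lipase that frees fatty acids from lipoproteins, read 2087, 2067 and 2889.9 in tumors and 9073, 6248 and 5532 in wild types (-1.55 ± 0.29, adjusted p = 0.016). The Lpl call was lost without tumor 1 (0.067) or tumor 3 (0.0544), with all tumors below all wild types. Of the 48 tested genes of fatty acid use, 1 was called higher and 3 lower, beside 2.86% and 2.23% of all genes. With the sample number as a block 10 were lower, but 0 without tumor 1 or tumor 3 and 1 without wild type 3.

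Genes of the extracellular matrix were called in both directions. Of 46 laminins and other matrix proteins tested, 7 were called higher and 2 lower, beside 2.86% and 2.23% of all genes. Their median was 0.38. With the sample number as a block 14 were higher and 4 lower, and without tumor 3 or wild type 3 there were 4 higher and 1 lower. Fbln2 encodes fibulin 2, a binding partner of elastic fibres and basement membranes. It read 3494, 4639 and 4723 in tumors and 856, 935 and 774 in wild types (2.32 ± 0.25, adjusted p = 0.00124). Its relative Fbln1 read 4631, 3920.1 and 4853 and 1307, 1305 and 1327 (1.76 ± 0.23, adjusted p = 0.00369). The wild types were nearly equal for Fbln1, and the 4 probes of the gene differed by 1.65 to 1.97. Fmod, fibromodulin, a collagen-binding proteoglycan, differed by 1.99 ± 0.31 (adjusted p = 0.00698). Summed marker signals of cells that make matrix differed as well, those of fibroblasts and meninges lower and those of pericytes and smooth muscle higher. The members of both lists went both ways. Of the fibroblast and meningeal markers 5 of 13 lay higher in tumors, with a median of -0.16. Of the pericyte and smooth muscle markers 4 of 9 lay higher, with a median of -0.02. The summed signal of 13 tested fibroblast and meningeal markers lay at 27658 to 32334 in tumors and at 33284 to 38865 in wild types, and that of 9 pericyte and smooth muscle markers at 5954 to 9381 and at 4881 to 5731, with no overlap in either. Fbln1 was higher and Dpep1 lower among the first (Dpep1 named after its values were seen, adjusted p = 0.037, up to 0.147 without any 1 array but wild type 2), and Notch3 was the 1 call, higher, among the second. Their part in the matrix results was not tested.

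The laminin beta chains moved in opposite directions. Lamb2 read 3192, 2071 and 2504 in tumors and 773, 772 and 713 in wild types (1.76 ± 0.26, adjusted p = 0.00545). Lamb1 read 143, 194 and 101 in tumors and 474, 433 and 408 in wild types (-1.64 ± 0.29, adjusted p = 0.0135, but 0.0507, 0.0858 and 0.0562 without tumor 1, tumor 3 and wild type 3); this pair was singled out after its values were seen. Collagens had few calls, with 2 of 30 higher and 2 lower, beside 2.86% and 2.23% of all genes. With the block the counts were 8 and 4, and without tumor 1, tumor 3 or wild type 3 they were 1 and 1. Col22a1, a collagen of tissue junctions, read 1531, 1373 and 1549.7 in tumors and 252, 162 and 210.2 in wild types (2.86 ± 0.26, adjusted p = 0.000565). Col4a4, a chain of the basement membrane collagen of kidney and lens, read 225, 275 and 166 in tumors and 804, 754 and 765 in wild types (-1.83 ± 0.27, adjusted p = 0.00536), and its 3 probes differed by -2.23 to -1.83. Col2a1, the main cartilage collagen, rose by 1.47 ± 0.29 (adjusted p = 0.0222, but 0.0866, 0.117 and 0.0905 without tumor 1, tumor 3 and wild type 3).

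Spock3, a testican proteoglycan, had the second largest fall. It read 93.6, 135 and 68.7 in tumors and 564, 769.8 and 699 in wild types (-2.81 ± 0.30, adjusted p = 0.00125). Among matrix proteases and inhibitors 3 of 41 were called higher and 3 lower, with 7 higher under the block and 1 lower without tumor 3 or wild type 3. Htra1, a secreted serine protease, read 7062, 6589 and 7379 in tumors and 713, 1101 and 1269 in wild types (2.81 ± 0.28, adjusted p = 0.000871). Adam23, a membrane protein of the ADAM family without protease activity, read 302, 409 and 313 in tumors and 1471, 1275 and 1065 in wild types (-1.90 ± 0.26, adjusted p = 0.00424). That call was lost where all 12 arrays of both ages were fitted together (-1.89, adjusted p 0.292).

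Slit3, a ligand of Robo receptors, read 2927, 3122 and 2698 in tumors and 753, 739.7 and 631 in wild types (2.04 ± 0.23, adjusted p = 0.00175). Ptn, the heparin-binding growth factor pleiotrophin, read 14506, 12845 and 15161 in tumors and 2781, 4626 and 5679 in wild types (1.76 ± 0.31, adjusted p = 0.0124, but 0.0778 without tumor 3). Cxcl12, the ligand of the receptor CXCR4, read 4802, 3097 and 3411 in tumors and 1513, 865 and 801 in wild types (1.87 ± 0.32, adjusted p = 0.0117). Without tumor 1, tumor 3 or wild type 3 the Cxcl12 value missed the threshold (0.0502, 0.06 and 0.0613). Its receptor gene Cxcr4 read 91.3 to 211 in tumors and 109 to 148 in wild types and was not called (adjusted p = 0.809). Of 44 guidance genes 2 were called higher and 0 lower, 7 and 2 with the block, and 1 without tumor 1, tumor 3 or wild type 3, beside 2.86% of all genes called higher. Of 37 chemokines, interleukins and receptors Cxcl12 was the only call, with 3 higher and 1 lower under the block.

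Genes of cell division held the most calls. Of 52 tested mitosis genes 35 were called higher and 0 lower, and of 45 replication genes 23 and 0. With the block 42 mitosis genes were higher and 1 lower, and 26 and 0 replication genes. The calls held without each array in turn for 21 and 9 genes, and without tumor 3 the counts were 21 and 9. Without wild type 3 the replication count was 12, and without tumor 1 it was also 12. Mcm5, a subunit of the helicase that opens DNA for copying, read 6129, 7811 and 6678 in tumors and 517, 858 and 783 in wild types (3.28 ± 0.28, adjusted p = 0.000388). Top2a, the topoisomerase that untangles chromosomes, read 2449.7, 2198 and 2424 in tumors and 162, 305 and 450.4 in wild types (3.07 ± 0.36, adjusted p = 0.00204). Neither gene had a tumor within reach of a wild type. Of 22 E2F factors, cyclins and their kinases, 4 were called higher, 8 with the block and 1 without tumor 1, tumor 3 or wild type 3. Inhibitors of those kinases rose too, 2 of 8 tested, 3 with the block, 1 without tumor 1 or wild type 2 and 0 without tumor 3 or wild type 3. Cdkn2c, an inhibitor of CDK4 and CDK6, read 942, 619.6 and 875 in tumors and 302, 227 and 254 in wild types (1.62 ± 0.27, adjusted p = 0.00974, but 0.0715 without tumor 3 and 0.0527 without wild type 3), and its 3 probes differed by 0.80 to 2.82. Cdkn3, a phosphatase that acts on CDK2, differed by 2.16 ± 0.47 (adjusted p = 0.0321) and lost its call without tumor 1, tumor 3, wild type 2 or wild type 3 (0.081 to 0.15). Of 38 genes of apoptosis and the p53 pathway Bcl2, which protects cells from apoptosis, was the only call (1.00 ± 0.23, adjusted p = 0.0401, but 0.0549 to 0.177 without any 1 array).

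Repair and chromatin genes followed. Of 43 genes of DNA repair and replication stress, 11 were called higher and 0 lower (16 and 2 with the block), 5 of them without tumor 3 and 7 without tumor 1 or wild type 3. Rad54l, a motor protein of homologous recombination, read 439.9, 749 and 511 in tumors and 40.2, 135 and 71.9 in wild types (2.92 ± 0.43, adjusted p = 0.00571). Clspn, claspin, which links stalled forks to the checkpoint kinase, differed by 2.89 ± 0.26 (adjusted p = 0.000498). Ung, which removes uracil from DNA, differed by 2.05 ± 0.31 (adjusted p = 0.00648). Uhrf1, which carries DNA methylation to the new strand, read 4938, 3776 and 4595 in tumors and 964, 966 and 786 in wild types (2.29 ± 0.25, adjusted p = 0.00124). Its partner Dnmt1 rose by 0.99 ± 0.24 (adjusted p = 0.046), and this call was lost without any 1 array (0.0527 without tumor 2 to 0.196 without tumor 3). Ezh2, the Polycomb methyltransferase, differed by 2.61 ± 0.74 but was not called (adjusted p = 0.081), with wild type 1 at 31.0 and the other wild types at 176 to 307; with the block its adjusted p was 0.000272.

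The promoters of the called genes differed in the letters they held. The E2F core TTCCCGC was present in 8.16% of all 9262 promoter windows, in 16.7% of those of 239 genes called higher and in 3.54% of those of 198 called lower. TTTGAA, the core of the cell cycle genes homology region (CHR), was present in 11.7%, 23.4% and 14.1%. Outside the lists of division, repair and chromatin, 175 genes called higher still held them in 13.7% (E2F core) and 16.6% (CHR core). The list of CDK inhibitors was not among those set aside, and the 175 may still include genes of division. Of the 37 replication promoters 37.8% held the E2F core, and of the 43 mitosis promoters 62.8% held the CHR core. The TCF/LEF core CTTTGAT, read by the Wnt pathway, was in 2.57% of all windows and 3.35% of those called higher. The promoters of 3 genes are shown for the strongest risers that hold the E2F or CHR core, in capitals, ahead of the start. Zfp663 holds both on the opposite strand, CHR 151 and E2F 49 bases before the start (chr2:165368737-165368986, minus strand). Pcsk6 holds the E2F core on the opposite strand 108 bases before it (chr7:65861886-65862135, plus strand), and Ckap2, a spindle protein, holds the CHR core 101 bases before it (chr8:22185820-22186069, minus strand); all are RefSeq, GRCm38.p6.
Zfp663: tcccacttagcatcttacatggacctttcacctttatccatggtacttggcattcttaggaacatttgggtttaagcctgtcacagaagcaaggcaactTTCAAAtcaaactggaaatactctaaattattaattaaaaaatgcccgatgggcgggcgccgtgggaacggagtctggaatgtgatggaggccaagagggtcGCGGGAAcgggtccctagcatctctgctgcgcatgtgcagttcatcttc
Pcsk6: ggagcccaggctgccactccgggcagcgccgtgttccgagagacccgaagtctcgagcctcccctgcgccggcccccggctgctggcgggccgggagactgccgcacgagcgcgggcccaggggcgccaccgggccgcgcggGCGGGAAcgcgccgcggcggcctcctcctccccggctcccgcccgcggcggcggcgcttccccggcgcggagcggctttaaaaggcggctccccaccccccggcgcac
Ckap2: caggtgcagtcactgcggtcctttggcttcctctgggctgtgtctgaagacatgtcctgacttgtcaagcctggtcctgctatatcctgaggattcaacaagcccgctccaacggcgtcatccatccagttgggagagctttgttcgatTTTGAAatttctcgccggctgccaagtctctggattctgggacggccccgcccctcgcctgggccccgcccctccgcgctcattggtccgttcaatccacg
Ckap2 itself read 474, 739.7 and 596 in tumors and 29.7, 74.9 and 125 in wild types (3.18 ± 0.47, adjusted p = 0.00626).

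**Figure D3:**
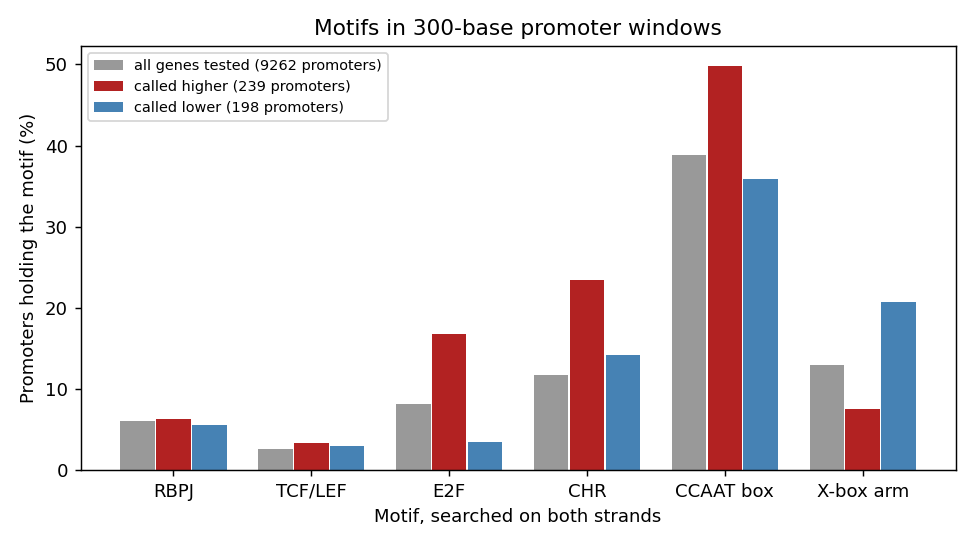
Share of 300-base promoter windows that hold each motif on either strand, for all tested genes, genes called higher and genes called lower. The E2F and CHR cores stand at 16.7% and 23.4% in genes called higher, and the X-box arm at 20.7% in genes called lower.

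Genes of epithelial transport had calls mainly in the downward direction. Of 41 carriers of glucose, monocarboxylates, amino acids and vitamins, 8 were called lower and 0 higher, beside 2.23% of all genes called lower. None of these 8 calls held without each array in turn, and the count was 7 without wild type 1, 3 without wild type 2, 2 without tumor 1, 1 without wild type 3 and 0 without tumor 3. Slc23a2, the transporter that brings vitamin C into the choroid plexus and so into the brain, read 983, 2539 and 1047 in tumors and 3807, 5004 and 4799 in wild types (-1.71 ± 0.38, adjusted p = 0.0332). Tumor 2 was the closest to the wild types, and the call was lost without tumor 1 or 3 or wild type 2 or 3 (0.0822 to 0.163). Slc7a10, a carrier of small neutral amino acids, read 1906, 2276 and 2166 in tumors and 6012, 5080.0 and 5523 in wild types (-1.39 ± 0.24, adjusted p = 0.0112, but 0.0551, 0.0737 and 0.0592 without tumor 1, tumor 3 and wild type 3). Slc1a1, a glutamate and cysteine carrier, differed by -1.54 ± 0.28 (adjusted p = 0.0148, but 0.1 without tumor 3 and 0.112 with all 12 arrays). The other called members were Slc38a3, Slc6a20a, Slc16a8, Slc5a5 and Slc39a4 (adjusted p 0.0133, 0.025, 0.0401, 0.0267 and 0.0486), of which Slc5a5 carries iodide and Slc39a4 zinc; the first 3 were named after their values were seen. Slc38a3 lost its call without tumor 1, tumor 3 or wild type 3 (0.0565 to 0.105), Slc6a20a without those or wild type 2 (0.0749 to 0.12), Slc16a8 without any 1 array but wild type 1 (0.0793 to 0.169) and Slc5a5 without tumor 2, tumor 3, wild type 2 or wild type 3 (0.0624 to 0.145). The glucose transporter Slc2a1 differed by -0.14 ± 0.33 and was not called (adjusted p = 0.863).

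Organic ions are cleared from the fluid by a second set of carriers. Of 29 tested, 1 was called higher and 2 lower, and 5 were lower with the block. Slc22a8, the organic anion transporter OAT3 of the apical membrane, read 308, 371 and 189 in tumors and 1064, 1154 and 659.9 in wild types (-1.74 ± 0.34, adjusted p = 0.0206). It lost its call without tumor 1 (0.0555), tumor 3 (0.11) or wild type 2 (0.0616). The other calls of the list were Slc22a18, lower, and Slc22a23, higher (adjusted p 0.0249 and 0.0474, Slc22a18 losing its call without tumor 2, tumor 3 or wild type 3, at 0.056 to 0.133, and Slc22a23 without any 1 array but wild type 1, at 0.0729 to 0.18). Slc44a3, of the choline transporter-like family, read 102, 108 and 88.8 in tumors and 551, 353 and 362 in wild types (-2.06 ± 0.27, adjusted p = 0.00348), and kept its call without each array.

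The ion transport machinery itself had few calls. Of 22 tested pumps, bicarbonate carriers and carbonic anhydrases 1 was called, with 2 higher and 3 lower under the block. Slc12a4, a potassium and chloride cotransporter, differed by -1.82 ± 0.34 (adjusted p = 0.0174, but 0.0693, 0.104 and 0.0709 without tumor 1, tumor 3 and wild type 3). Of 9 water and ion channels of the epithelium, Trpv4, a channel that responds to osmotic swelling and warmth, was the only call (0 without any 1 array, 1 higher and 2 lower with the block). It read 969, 897 and 688 in tumors and 1580.4, 2297 and 1645 in wild types (-1.11 ± 0.27, adjusted p = 0.0499), without any 1 array its adjusted p was 0.0502 to 0.249, and another of its 3 probes differed by 0.36. Metal handling had 2 of 30 genes lower, both zinc carriers, and 6 with the block. Slc30a1, which exports zinc from cells, differed by -1.07 ± 0.25 (adjusted p = 0.0435). Slc39a4, which imports it, differed by -1.18 ± 0.29 (adjusted p = 0.0486). Neither zinc call held without any 1 array (0.0577 to 0.226).

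The defining products of the tissue were present in both groups. Ttr, transthyretin, read 60637 to 62805 in tumors and 61664 to 66341 in wild types, among the brightest signals of each array (-0.04 ± 0.23, adjusted p = 0.95). Putting the arrays on a common distribution leaves little room for a difference among the brightest signals, so equal amounts of Ttr cannot be read from this value. Aqp1, the water channel of the apical membrane, read 13574, 29967 and 18442 in tumors and 32113, 55492 and 43869 in wild types. Its difference of -1.13 ± 0.35 was not called (adjusted p = 0.107), although all tumors lay below all wild types and its adjusted p was 0.00927 with the block. Cldn2, a claudin that forms water and cation pores, was just outside the threshold at -1.02 ± 0.25 (adjusted p = 0.0505, 0.0169 with the block). Folr1, which carries folate into the fluid, differed by -0.70 ± 0.28 (adjusted p = 0.203). The summed signal of 12 tested markers of choroid plexus epithelium was 175533 to 215169 in tumors and 219350.0 to 277014 in wild types, and 1 of the 12 was called, Htr2c. In these bulk pools fewer cells of a type and less RNA per cell cannot be told apart, and the part of the epithelial share in these results was not tested.

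Of 38 secreted and surface proteins, 1 was called higher, Ptn as given above, and 4 lower. With the block 10 were lower, while 1 was lower without tumor 1, wild type 1 or wild type 2 and 0 without tumor 3 or wild type 3. Defb11, a beta-defensin, was one of the brightest called genes, at 8880.1, 3717 and 5343 in tumors and 28508, 13776 and 16332 in wild types (-1.73 ± 0.39, adjusted p = 0.0366). The tumors stayed below the wild types, but the call was lost without tumor 2 (0.0906), tumor 3 (0.15), wild type 1 (0.0644) or wild type 3 (0.0983). A separate list of 23 hormone, serotonin and uptake receptors had 2 called higher, Drd1 among them, and 1 lower (3 and 3 with the block). The 1 lower was Htr2c, the serotonin receptor typical of this epithelium. It read 77.0, 133 and 112 in tumors and 280.3, 235 and 301 in wild types (-1.37 ± 0.28, adjusted p = 0.0262). It lost its call without tumor 1, tumor 3 or wild type 3 (0.101, 0.114 and 0.111), and another of its 3 probes differed by 0.87. Adra2c, the alpha-2C adrenergic receptor, belonged to neither list. It read 52.4, 54.3 and 36.7 in tumors and 234, 282 and 143 in wild types (-2.17 ± 0.32, adjusted p = 0.00578). Lrp2, the uptake receptor megalin, was not among the 38 secreted and surface proteins and was higher (1.88 ± 0.26, adjusted p = 0.00424). Its second probe differed by 0.10, and the mean of the probes missed the threshold (0.0505).

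Keratin and adhesion genes had 3 calls of 29, all lower; with the block 3 were higher and 6 lower, and 1 was lower without tumor 1, tumor 3, wild type 2 or wild type 3. Krt23, an epithelial keratin, read 156, 146 and 243 in tumors and 731, 909.7 and 714 in wild types (-2.14 ± 0.28, adjusted p = 0.00356) and kept its call without each array. Krt8, a keratin of simple epithelia, fell by less (-1.12 ± 0.23, adjusted p = 0.0267) and lost its call without tumor 1 or 3 or wild type 2 or 3 (0.0805 to 0.163). Of 26 tight junction genes 0 were called in limma, with 3 higher and 4 lower at an unadjusted p under 0.05 and 2 higher and 3 lower under the block.

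The single largest fall was in a retinoid gene. Rlbp1, a binding protein for retinaldehyde known from the retina, read 126, 157 and 95.3 in tumors and 1026, 1105 and 750.1 in wild types (-2.94 ± 0.29, adjusted p = 0.000804). Its highest tumor signal was several-fold below its lowest wild-type signal. It was the only call among 25 retinoid genes, with 4 lower and 1 higher under the block. Methyl group metabolism had 3 of 26 genes lower and 1 higher, 5 and 4 with the block, and 1 lower and 0 higher without tumor 3. Inmt, which methylates indoleamines, read 365, 174 and 226 in tumors and 1849, 1150.1 and 1068 in wild types (-2.44 ± 0.35, adjusted p = 0.00479). Gnmt, which uses S-adenosylmethionine to methylate glycine, read 965, 347 and 582 in tumors and 4447, 2303 and 2234 in wild types (-2.29 ± 0.42, adjusted p = 0.0151, but 0.0728 without tumor 3). For both genes wild type 1 was the highest array.

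The other leading falls belonged to no list. Paqr9, a membrane protein of the progestin and adipoQ receptor family, read 76.3, 56.7 and 70.3 in tumors and 505, 304 and 237 in wild types (-2.30 ± 0.32, adjusted p = 0.00431) and kept its call without each array. Rasgrp1, an activator of Ras proteins, read 115, 134 and 95.2 and 812, 395 and 354 (-2.09 ± 0.35, adjusted p = 0.00998, but 0.0657 without tumor 3 and 0.0599 with all 12 arrays). Chil1, a secreted chitinase-like protein, read 362, 167 and 219 in tumors and 1814, 835 and 748 in wild types (-2.14 ± 0.41, adjusted p = 0.019, but 0.0652 and 0.0968 without tumors 2 and 3). For each of these 3 genes wild type 1 was the highest array. Rd3l differed by -2.33 ± 0.47 (adjusted p = 0.025, but 0.0618, 0.0704 and 0.0668 without tumor 2, tumor 3 and wild type 3), and Gm128 by -2.17 ± 0.35 (adjusted p = 0.00845, but 0.059 without tumor 3).

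Detoxification enzymes split in size and direction. Of 66 tested, 3 were called higher and 7 lower, beside 2.86% and 2.23% of all genes, and 4 and 18 with the block. The 7 became 4 without tumor 2, 3 without wild type 2, 2 without tumor 1 or wild type 3 and 0 without tumor 3. The 3 rises were Cyp2f2, Maob and Aldh3a1, an aldehyde dehydrogenase (1.55 ± 0.28, adjusted p = 0.014, but 0.0643 and 0.0688 without tumors 1 and 3), which was named after its values were seen. Among the falls, Gsta3, a glutathione transferase, read 189, 62.3 and 94.4 in tumors and 611, 343 and 283 in wild types (-1.91 ± 0.44, adjusted p = 0.0395). It lost its call without any 1 array but tumor 1 (0.07 to 0.16). Sult1c2, a sulfotransferase, was detected in wild types only and was at least 2.41-fold lower in tumors (adjusted p = 0.0155, but 0.0518, 0.0542 and 0.0783 without tumors 1, 2 and 3). Outside this list, Cyp2c23, an epoxygenase of arachidonic acid, read 57.8, 56.8 and 98.9 in tumors and 248, 241 and 279 in wild types (-1.89 ± 0.29, adjusted p = 0.00654). Nat8, an acetyltransferase known from the kidney and also outside the list, was at least 3.18-fold lower (adjusted p = 0.00439). Neither of these last 2 calls was lost without any 1 array.

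**Figure D4:**
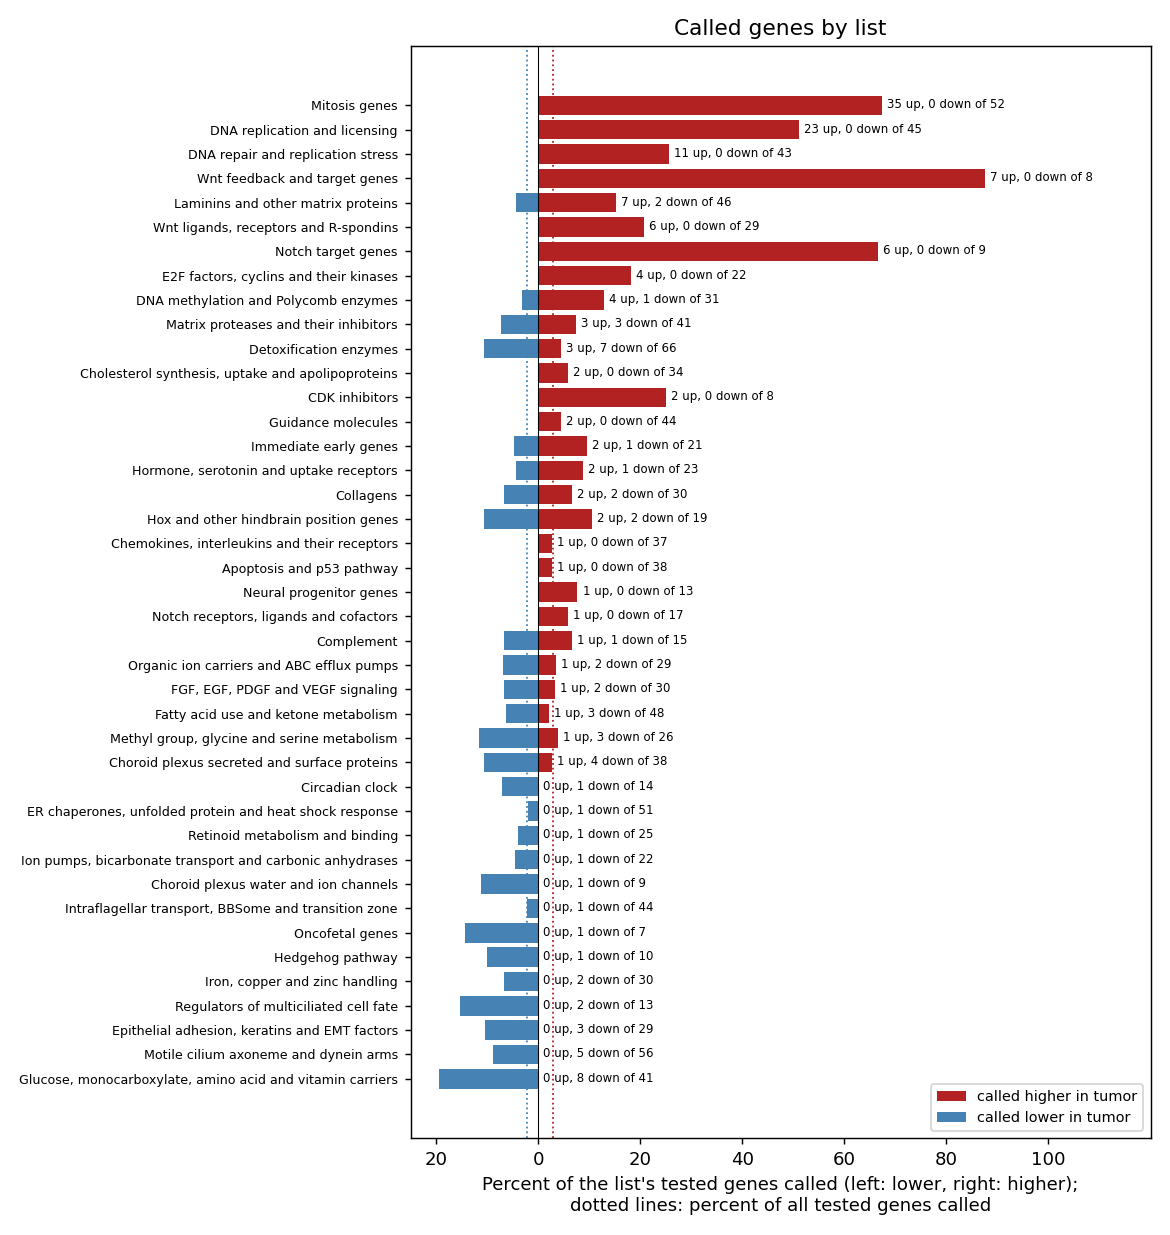
Share of each list's tested genes called higher (to the right) or lower (to the left), with the counts; dotted lines mark the 2.86% and 2.23% of all genes called. Division, Notch and Wnt lists extend to the right, and carriers (8 of 41) extend farthest to the left.

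Genes of motile cilia lay below wild type at the median, and few passed the test. Of 56 tested axoneme and dynein arm genes, 5 were called lower and 0 higher, with a median of -0.55 beside -0.07 over all genes. Groups did not overlap for 22 lower and 1 higher of them, where 25.7% of all genes did not overlap in either direction. With the block 17 were called lower and 1 higher. Without tumor 1, tumor 3 or wild type 3 none was called, without wild type 1 there was 1, and without wild type 2 there were 2. Tekt1, a tektin filament protein of the axoneme, read 4021, 3248 and 4066 in tumors and 7768, 7043 and 9835 in wild types (-1.11 ± 0.25, adjusted p = 0.0382). Lrrc6, an assembly factor of dynein arms, read 138, 192 and 135 in tumors and 385, 303 and 450.1 in wild types (-1.29 ± 0.27, adjusted p = 0.0283). Cfap53, which sits in the axoneme and at its base, differed by -1.13 ± 0.25 (adjusted p = 0.0349). For all 3 genes the tumors lay below the wild types, and each lost its call without tumor 1, tumor 3 or wild type 3 (Lrrc6 0.11, 0.16 and 0.128), Tekt1 also without tumor 2, wild type 1 or wild type 2 (0.0531 to 0.0656) and Cfap53 without wild type 1 or 2 (0.0644 and 0.0871).

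Regulators of the multiciliated fate had 2 of 13 genes lower. Ccno, a cyclin needed for mass production of centrioles, read 432, 389 and 477 in tumors and 836, 1031 and 845 in wild types (-1.06 ± 0.24, adjusted p = 0.0376). Trp73, a transcription factor of multiciliated cells, was detected in wild types only and was at least 1.84-fold lower (adjusted p = 0.0488). Either call was lost without 5 of the 6 arrays, each fit but wild type 1 for Ccno (0.0584 to 0.147) and each but wild type 2 for Trp73 (0.0709 to 0.184). Mcidas and Foxj1, 2 other regulators, were not called (-0.87 ± 0.31, adjusted p = 0.154, and -0.39 ± 0.30, adjusted p = 0.535). Of 18 centriole genes 0 were called in limma, with 6 lower and 0 higher at an unadjusted p under 0.05 and 3 lower under the block. Of 44 genes of intraflagellar transport and the transition zone 1 was lower, Ift57 (-1.37 ± 0.29, adjusted p = 0.0296, lost without tumor 1, 2 or 3 or wild type 3 at 0.0611 to 0.13), and 4 with the block. The summed signal of 8 multiciliated cell markers was 16420.0 to 19609.5 in tumors and 23036 to 30387 in wild types, which do not overlap, and its part in the ciliary results was not tested.

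GTTGCC, an arm of the X-box that RFX factors bind in ciliary promoters, was in 12.9% of all windows, 20.7% of those of genes called lower and 7.53% of those called higher. Of 45 promoters of the axoneme list 37.8% held it. Tekt1 is shown because it holds the arm on both strands, 35 and 15 bases before the start (chr11:72361883-72362132, minus strand), and was chosen after its values were seen. Clic3, an intracellular chloride channel protein whose fall was the third largest among the holders after Rd3l, where the match spans the start, and Rasgrp1 (log2 -2.07 ± 0.46, adjusted p = 0.0348), holds it 94 bases before the start (chr2:25456593-25456842, plus strand). The Clic3 call was lost without tumor 2 (0.0929), tumor 3 (0.139), wild type 1 (0.0561) or wild type 3 (0.0814).
Tekt1: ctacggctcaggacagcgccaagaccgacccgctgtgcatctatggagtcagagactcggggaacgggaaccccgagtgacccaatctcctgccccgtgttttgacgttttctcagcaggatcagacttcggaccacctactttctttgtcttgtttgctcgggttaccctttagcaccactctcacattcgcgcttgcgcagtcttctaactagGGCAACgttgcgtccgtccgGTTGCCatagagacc
Clic3: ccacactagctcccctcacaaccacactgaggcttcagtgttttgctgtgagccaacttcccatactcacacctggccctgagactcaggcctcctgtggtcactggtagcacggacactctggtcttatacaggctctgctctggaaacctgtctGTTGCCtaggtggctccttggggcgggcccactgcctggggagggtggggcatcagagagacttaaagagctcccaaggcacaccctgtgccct
Capitals mark the arm on either strand, and the sequences are from RefSeq, GRCm38.p6.

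**Figure D5:**
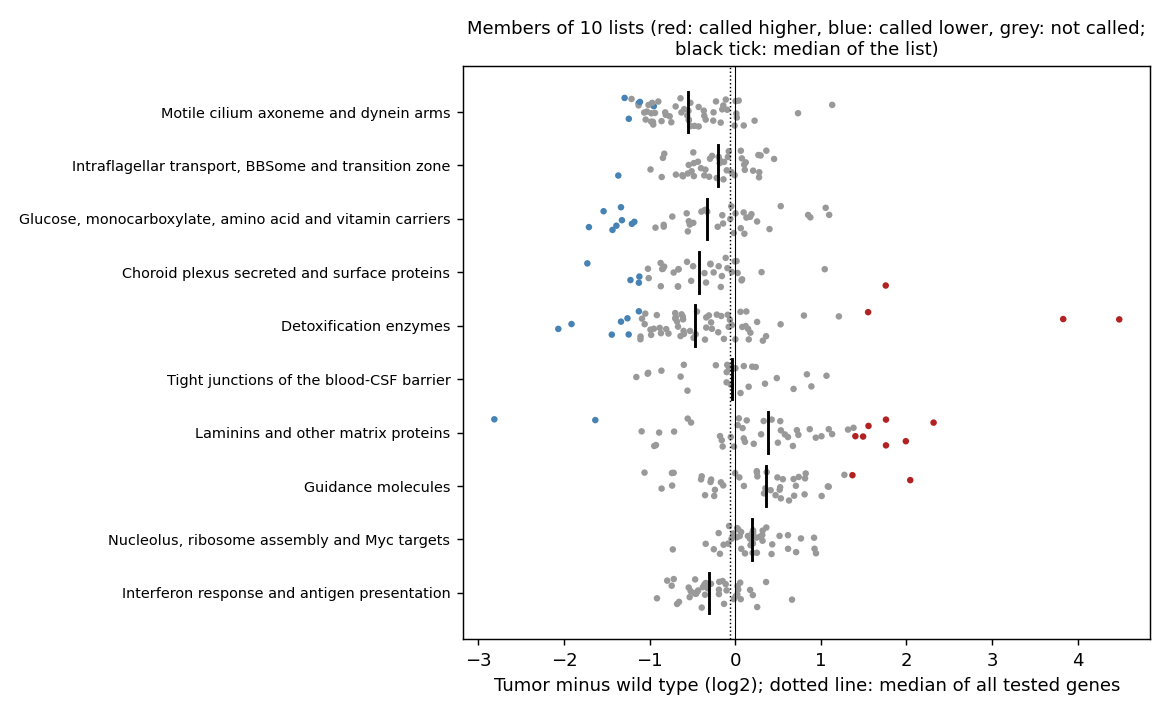
Difference between tumor and wild type (log2) for every tested member of 10 lists, with red and blue for called genes and a black tick at each median. The axoneme list has a median of -0.55 with few calls, matrix proteins have called genes on both sides, and the nucleolar and interferon lists have none.

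Shh, whose product the young choroid plexus epithelium secretes, was lower in tumors. It read 404, 418 and 334 in tumors and 1067, 1012 and 934 in wild types (-1.39 ± 0.24, adjusted p = 0.0116, but 0.0967 without tumor 3 and 0.0527 without wild type 3). A second Shh probe differed by -2.09. It was the only call among 10 hedgehog genes (2 lower with the block or without tumor 2), and Ptch1, receptor and target of the pathway, differed by -0.07 ± 0.26 (adjusted p = 0.916). Fgf10, a growth factor of epithelial buds, read 31.9, 50.9 and 31.0 in tumors and 104, 110.1 and 129.8 in wild types (-1.63 ± 0.28, adjusted p = 0.0116, but 0.0519, 0.084 and 0.0632 without tumor 1, tumor 3 and wild type 3). Dlk1, a membrane protein related to Notch ligands, fell from 15481 to 26669.7 in wild types to 6888 to 9272 in tumors (-1.34 ± 0.28, adjusted p = 0.0283). Without any 1 array but wild type 1 the Dlk1 call was lost (0.0533 to 0.139). Of 30 genes of FGF, EGF, PDGF and VEGF signaling, Fgf10 and Btc were lower and Etv4 higher (3 and 3 with the block). Etv4, a transcription factor induced by FGF signals, read 189, 89.6 and 139.6 in tumors and 44.3, 49.8 and 50.2 in wild types (1.47 ± 0.31, adjusted p = 0.0272, but 0.0647 to 0.138 without tumor 1, tumor 3, wild type 2 or wild type 3). Btc, an EGF receptor ligand, differed by -1.19 ± 0.27 (adjusted p = 0.036, but 0.0578 to 0.196 without any 1 array). Without background correction Fgf10, Etv4 and Btc all missed the threshold (0.0616, 0.106 and 0.148).

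Position genes of the hindbrain changed in both directions. Irx3 and Irx5, neighbouring homeobox genes, were higher by 1.47 ± 0.32 (adjusted p = 0.0327) and 1.53 ± 0.33 (adjusted p = 0.0308). Irx2, a member of the other Irx cluster, read 105, 155 and 95.8 in tumors and 359, 275 and 365 in wild types (-1.51 ± 0.28, adjusted p = 0.0163). En2, a homeobox gene of the midbrain and hindbrain border, read 446, 602 and 471 in tumors and 929.9, 1239 and 1059.8 in wild types (-1.09 ± 0.25, adjusted p = 0.0418). These 4 are all the calls among 19 position genes, of which 3 were higher and 4 lower under the block. Each was lost without tumor 1, tumor 3 or wild type 3 (up to 0.169 for Irx3, 0.159 for Irx5, 0.111 for Irx2 and 0.208 for En2, all without tumor 3), and all but Irx2 also without wild type 2 (0.0662, 0.0859 and 0.115). Irx3 was lost without wild type 1 as well (0.0624), Irx5 without tumor 2 (0.0559) and En2 with all 12 arrays (0.155). None of 13 transcription factors of the roof plate and choroid plexus was called in limma (3 higher and 1 lower at an unadjusted p under 0.05), and 1 was higher with the block. Among the 13 were Otx2 (-0.04 ± 0.34, adjusted p = 0.969) and Lmx1a (0.43 ± 0.26, adjusted p = 0.414).

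Neural progenitor genes had 1 call of 13, with 3 under the block. Slc1a3, a glutamate carrier of radial glia and astrocytes, read 7590.1, 5956 and 9149.8 in tumors and 2544, 2452 and 2629 in wild types (1.55 ± 0.25, adjusted p = 0.00953, but 0.075 without tumor 3). Sox2, a stem cell factor, lay just outside the threshold (2.26 ± 0.55, adjusted p = 0.0502, 0.00158 with the block). With probes detected on all 6 arrays, another of its probes stood for it, at -0.04 (adjusted p 0.963). Wild type 1 read 44.5 for Sox2 and the other wild types 103 to 279, and without wild type 2 the adjusted p was 0.00643. The Sox gene Sox6 was called, at 222, 434 and 291 in tumors and 75.4, 73.5 and 41.0 in wild types (2.31 ± 0.35, adjusted p = 0.00638).

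Mast cell proteases were lower in the tumors. Cpa3, the carboxypeptidase of mast cell granules, read 96.3, 168 and 154 in tumors and 1186, 509.7 and 1299 in wild types (-2.77 ± 0.40, adjusted p = 0.00512). Tpsb2, a tryptase, was detected in wild types only and was at least 3.82-fold lower in tumors (adjusted p = 0.00723). Cma1, a chymase named after its values were seen, differed by -1.99 ± 0.42 (adjusted p = 0.0282) and lost its call without tumor 1, 2 or 3 or wild type 3 (0.0693 to 0.106). Of 7 tested mast cell markers 3 were called lower, while Kit, which other cells also express and which was named after its values were seen, read 13687 to 21129.5 in tumors and 8015 to 10692 in wild types and was not called (0.93 ± 0.27, adjusted p = 0.0895, 0.0387 with the block). Of 14 macrophage markers 1 was lower, and 0 of 13 endothelial, 0 of 9 neutrophil and 0 of 8 red cell markers were called in limma, with 2 higher and 1 lower, 0 and 1, and 0 and 2 at an unadjusted p under 0.05. Complement had 1 call in each direction, and 2 in each with the block: Masp1, a serine protease of the lectin pathway, rose (1.87 ± 0.26, adjusted p = 0.00431; 1 of its 3 probes differed by -0.06), and Cd55, a brake on complement, fell (-1.41 ± 0.24, adjusted p = 0.012, but 0.0599, 0.0688 and 0.0664 without tumor 1, tumor 3 and wild type 3).

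Several large groups had no call in limma. These were glycolysis (31 tested, 1 higher and 6 lower at an unadjusted p under 0.05), BMP and TGF-beta signaling (29, 7 and 3), insulin-like growth factors (14, 2 and 1), interferon response and antigen presentation (40, 0 and 2), the nucleolus and Myc targets (43, 4 and 1) and RNA splicing (47, 3 and 1). With the block 4 of the 47 splicing genes, 3 of the 29 BMP genes and 1 glycolysis gene were higher, and 3 glycolysis genes, 1 BMP gene and 1 insulin-like growth factor gene lower, with 1 insulin-like growth factor gene higher. Igf2, an imprinted growth factor, differed by 0.05 ± 0.24 (adjusted p = 0.934). It was likewise among the brightest genes, for which the common distribution over the arrays leaves little room for a difference. The unfolded protein and heat shock list and the clock list had 1 lower call each of 51 and 14 genes, and 2 higher and 4 lower, and 3 lower, with the block. Dnajb9, a chaperone of the endoplasmic reticulum, differed by -1.01 ± 0.24 (adjusted p = 0.0482, but 0.0618 to 0.183 without any 1 array). The heat shock gene Hspa1a, called lower as given above, was counted in the immediate early list and not in this one. Nr1d2, a repressor of the clock, differed by -1.08 ± 0.24 (adjusted p = 0.0337) and kept its call only without tumor 2.

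Arrays of the same group also differed from one another. The median SD over genes was 0.32 in each group. Relative to each gene's mean, the 33 subunits of respiratory complex I had a median of 0.50, -0.86 and 0.02 in tumors 1 to 3 and 0.85, -0.53 and -0.03 in wild types 1 to 3. The 56 cytosolic ribosomal proteins stood at 0.65, -0.28 and 0.30 in tumors and 0.37, -0.69 and -0.36 in wild types. This family also differed between the groups, with 53 of the 56 higher in tumors and a median of 0.44, beside -0.07 over all genes. Of its members 0 were called higher and 1 lower. Arrays numbered 1 were the high ones of each group for both families and arrays numbered 2 the low ones. Xist, which is expressed from the inactive X chromosome, read 256, 1917 and 920.0 in tumors and 34.7, 870.2 and 340.3 in wild types. Xist was not called (adjusted p = 0.413, 0.0023 with the block). Y-linked genes read highest in wild type 1, where Xist was lowest. Eif2s3y read 1997 there and 565 to 813 on the other arrays, Kdm5d 406 and 123 to 170, and Uty 125 and 63.5 to 116. The labels do not give the sex of the pooled animals, and its part in the spread or in wild type 1 standing apart was not tested. Adamts9 had one of the largest spreads among tumors, at 1994, 87.9 and 106 beside 719.7, 1421 and 1074 in wild types, and was not called (adjusted p = 0.335), but was without tumor 1 (-3.42, adjusted p 0.00284).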

How the data were processed

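RNA from pooled tissue was hybridised to single-colour Illumina mouse bead arrays. Per the labels' protocols it was extracted with Trizol, treated with DNase I and amplified to biotinylated cRNA. The deposited values are, per the file headers, the average bead signal, a linear intensity that the authors did not normalize, and a detection p-value per probe and array. The labels and headers do not name the scanner or its software. A second deposited table holds intensities that the authors normalized by a method not given in the sources used here, on a linear scale with array medians of 153.0 to 153.1, and served as an alternative.

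Of 45281 probes, 34885 carried 1 gene symbol in the platform annotation, 18 several and 10378 were not listed. Symbols were updated through Entrez identifiers (34807) or accessions (11), and 67 were kept as given. In R 4.3.3 with limma 3.58.1, the 6 newborn arrays were background-corrected by normexp with negative controls inferred from the detection p-values (offset 16), quantile-normalized and log2-transformed. Probes with 1 symbol and a detection p under 0.05 on at least 3 of 6 arrays were kept, and the brightest probe stood for its gene, which left 11471 genes, 4495 of them with several probes. No gene had probes called in opposite directions. The groups were compared two-sided with lmFit and eBayes and Benjamini-Hochberg adjustment over all genes. The procedure was run on simulated data with independent errors for each gene and array. That simulation held no outlying array and no deviations shared between samples, so it did not test the calls under such conditions. A gene undetected on every array of a group has only a bound there, written as "at least N-fold": the mean of the brighter group against, per array, the higher of the dim probe's signal and the lowest detected signal. The number of arrays limits the precision.

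The titles number the samples 1 to 3 in both groups. Deviations from the group means correlated over genes at 0.440, 0.447 and 0.106 between samples of the same number. Between samples of different numbers the values ran from -0.429 to 0.101, so number 3 hardly stood above them. The numbers were taken to pair the samples, which rests on numbers 1 and 2. No label says what a number marks. The fit without the block is the main one, and the blocked value stands beside results where it changed a call or moved a count by over 1.5 times.

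The genes, 51 gene lists and cell markers were chosen with earlier results of these data known. Named genes are the 15 largest rises and falls among calls, up to 4 called and the first 2 members of each list, up to 2 called members of each family, the 10 largest tumor-only and wild-type-only genes in each direction, the 6 most variable genes of each group and 2 called genes for leading promoter motifs. 3 symbols that had been listed in error were removed. RefSeq promoters (GRCm38.p6) were matched by symbol for 9262 tested genes. Alternatives were fits of all 12 arrays, with the sample number as a block, with array weights and without each array, and other background, normalization, detection and probe choices.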

Additional observations from a re-analysis of the deposited data

How the results depend on the processing

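Across the alternatives the direction of the called genes named above held. One called gene outside them, Ythdc2, reversed: -1.17 on the log2 scale in the 6-array fit and 0.55 (adjusted p 0.146 in limma) where all 12 arrays were fitted together. That fit called 1398 genes, 619 higher and 779 lower, and 562 of the 584. The pairing by sample number, entered as a replicate block, gave 1472 genes, 693 higher and 779 lower, and held all 584. Array quality weights gave 5320, 2349 higher and 2971 lower, but the estimation of the weights stopped before converging. Leaving out each array gave 163 to 577 calls, 144 to 325 higher and 19 to 266 lower, with fewer samples; no one cause beyond that was tested. The other background, normalization, filter and probe choices and the authors' values gave 469 to 598. Of 186 named calls, 79 held without each array in turn. Over all named genes and alternatives 514 values lost a call and 97 gained one. The losses given next, with their ranges, cover only genes described elsewhere in this report. Other members of the 186 lost calls as well, and some of their values lie outside these ranges. Adamts18 and Serpini1 were among those lost with all 12 arrays, and Rpl3l among those lost without background correction. Of the described genes, the limma call was lost with all 12 arrays for Rasgrp1, Slc1a1, En2 and Adam23 (adjusted p 0.0599 to 0.292). Without background correction the limma call was lost for Cdkn3, Fgf10, Gsta3, Sult1c2, Defb9, Etv4, Cma1, Slc6a20a, Ift57, Btc and Trp73 (adjusted p 0.0505 to 0.149). With cyclic loess the limma call was lost for Slc30a1, Trpv4, Dnajb9, Defb10, Cma1, Trp73 and Defb11 (adjusted p 0.051 to 0.068). With median scaling the limma call was lost for Clic3, Irx3, Gsta3, Defb10, Slc30a1, Cma1, Trp73 and Defb11 (adjusted p 0.0506 to 0.0808). With no detection filter the limma call was lost for Srebf2, Chil1, Trpv4, Dpep1, Irx5, Irx3, Slc16a8, Slc39a4, H2ac11, Wif1, Defb9, Rd3l, Cma1, Slc23a2, Defb10, Defb11, Trp73, Cdkn3, Clic3, Gsta3 and Ccn1 (adjusted p 0.0504 to 0.0909). With the mean of the probes the limma call was lost for Lrp2, Bcl2, Slc5a5, Nr1d2, Ift57, Srebf2, Htr2c and Trpv4 (adjusted p 0.0505 to 0.897). With the authors' values the limma call was lost for Gsta3, Defb9, Etv4, Cma1, Ift57, Slc6a20a, Btc and Trp73 (adjusted p 0.0509 to 0.119). The number of arrays limits the precision.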

Other observations

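Replication-dependent histone genes of the H2A type were higher in the tumors. H2ac24 read 17784, 7052 and 13574 in tumors 1 to 3 and 2889.9, 1677 and 2090.1 in wild types 1 to 3 (2.46 ± 0.38, adjusted p = 0.0067 in limma). H2ac12 read 4694, 1734 and 3610.0 and 436, 333 and 341 (3.07 ± 0.37, adjusted p = 0.00224). H2ac15 differed by 2.98 ± 0.40 (adjusted p = 0.00408) and H2ac7 by 2.33 ± 0.36 (adjusted p = 0.00723, but 0.0505 without tumor 3). In H2ac22 the difference was 2.57 ± 0.45 (adjusted p = 0.0126, lost without tumor 3 or wild type 3 at up to 0.0686), and in H2ac11 2.85 ± 0.55 (adjusted p = 0.0208, lost without tumor 1, tumor 3 or wild type 3 at up to 0.0992). Tumor 2 was the lowest tumor for each of these genes. They are near-identical copies whose probes may read each other's transcripts, so they do not count as separate observations.

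Beta-defensins and paraoxonases were lower. Beside Defb11, Defb35 read 210.2, 129.8 and 178 in tumors and 747, 448 and 661 in wild types (-1.84 ± 0.30, adjusted p = 0.00928 in limma, but lost without tumor 3 or wild type 3 at up to 0.0547). Defb9 differed by -1.97 ± 0.41 (adjusted p = 0.0267) and Defb10 by -1.37 ± 0.32 (adjusted p = 0.0441), and these calls were lost without tumor 2, tumor 3 or wild type 3 (Defb9, 0.0698 to 0.132) and without any 1 array but wild type 2 (Defb10, 0.0662 to 0.205). Pon1, a lactonase carried on lipoproteins, read 1378, 1099.5 and 1331 in tumors and 4981, 3781 and 3768 in wild types (-1.71 ± 0.25, adjusted p = 0.00568), and its call held without each array. Its relative Pon3 differed by -1.51 ± 0.26 (adjusted p = 0.0124, but up to 0.0668 without tumor 3 or wild type 3). In each of these genes every tumor lay below every wild type. All genes of this section were chosen after their values were seen.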
